A study of Saccharomyces cerevisiae with 12 samples.

Results

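The cytosolic ribosomal protein genes of budding yeast (Saccharomyces cerevisiae) are described here across WT cells and an RPD3 mutant grown in glucose or in sucrose. Members were taken by name from the deposited count table: every feature whose standard name is RPL or RPS with a number and an optional A or B, and the stalk genes RPP0, RPP1A, RPP1B, RPP2A and RPP2B. This gave 137 genes of the 7127 features in the table, 56 of the small (40S) and 81 of the large (60S) subunit, and all 137 passed the filter on low counts among 6085 features. They form 57 A and B paralog pairs, 19 single genes and the 4 stalk genes of the P1 and P2 families. The study sequenced RNA of WT and Rpd3-2SA cells, both labelled BY4741, a MATa laboratory strain, in exponential growth in glucose (YPD, a rich medium) or sucrose. RPD3 encodes a histone deacetylase, and the series title names the effect of its phosphorylation on expression in both sugars as the question. What the 2SA change is, how that strain was made and whether it is 1 clone cannot be read from the labels. There were 3 libraries in each of the 4 groups, which the design text calls biological replicates.

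A eukaryotic ribosome is built from a small subunit, which decodes the messenger RNA, and a large subunit, which joins amino acids. Ribosomal protein genes are among the most strongly transcribed genes of growing yeast, and the transcription factors Rap1, Fhl1, Ifh1 and Sfp1 tie them to nutrient supply through the TOR and protein kinase A pathways. Most exist as a pair of near-identical copies left by an ancient genome duplication, many carry an intron in a genome where introns are rare, and a decrease of their messages is a known part of the yeast stress response.

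Library totals ran from 20775911 to 25360037 counts. The sucrose libraries numbered 2 stood apart in both genotypes, and the medians and counts of calls over the members are also given without them. The 20 genes of a list of targets of the stress factors Msn2 and Msn4 held 3.92% of counts in WT and 2.27% in Rpd3-2SA in those libraries, against 0.478% to 1.30% in the other 10. RPD3 itself was counted at 90.7 to 136 CPM (counts scaled to library size and TMM factor) in every library, so its counts do not tell the strains apart. Of the markers of BY4741, MET17 had 0 counts and LEU2 had 1 count in all libraries, while HIS3 was counted at 29.8 to 69.1 CPM and URA3 at 233 to 521 CPM. BY4741 is known to carry deletions of these 4 genes, that of HIS3 partial, so the URA3 counts go against the strain label in all 12 libraries, and their source was not tested. The a-specific genes were counted, and the alpha-specific genes reached at most 6.92 CPM.

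The ribosomal protein genes together held a smaller share of the counts in sucrose than in glucose. In WT their share was 17.5%, 14.2% and 16.6% in the 3 glucose libraries and 9.67%, 4.09% and 11.3% in the 3 sucrose libraries. In Rpd3-2SA the glucose values were 16.7%, 15.7% and 15.0%, and the sucrose values were 10.3%, 5.85% and 13.4%. The groups did not overlap between sugars in either genotype, and the lowest glucose library of all lay above the highest sucrose library. The mean share was 16.1% ± 1.69 (SD, n = 3) in WT glucose, 15.8% ± 0.860 in mutant glucose, 8.35% ± 3.78 in WT sucrose and 9.85% ± 3.79 in mutant sucrose. The lowest sucrose values were those of the libraries numbered 2. Without these, the mean share in sucrose was 10.5% in WT and 11.9% in Rpd3-2SA. Both subunits took part in near equal measure: in WT glucose the 40S genes held 7.99% ± 0.898 and the 60S genes 8.13% ± 0.801, and in WT sucrose 3.99% ± 1.88 and 4.36% ± 1.90. In bulk RNA, fewer cells that make a message and less message in each cell cannot be told apart.

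**Figure D1:**
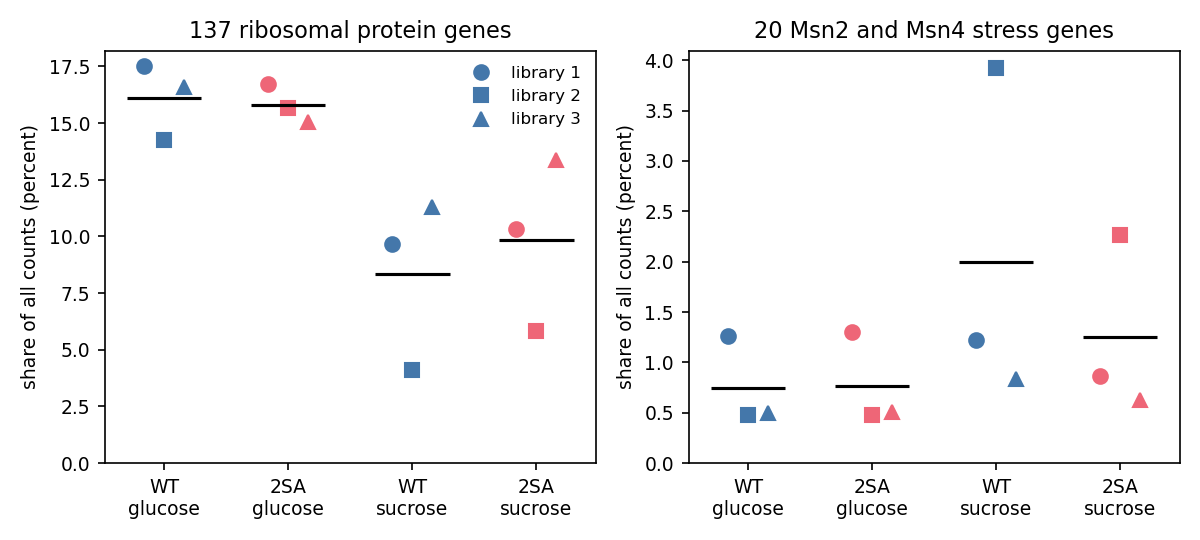
Share of all counts of a library, in percent, in the 137 ribosomal protein genes (left) and in 20 stress genes (right), each on its own axis. Each symbol is a library, its shape is the replicate number, and the bar is the group mean. The 6 glucose libraries lie between 14.2% and 17.5% on the left, above all sucrose libraries, and the sucrose libraries numbered 2 are lowest on the left and highest on the right.

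In WT, sucrose against glucose gave a median log2 fold change of -1.03 over the 137 genes, a fold of 2.04, beside 0.04 over all 6085 features tested. The fitted change was negative for 130 of the 137. All 3 sucrose libraries lay below all 3 glucose libraries for 115 of them, and above them for 1, beside 12.1% and 14.2% of all features. Called genes, those with an adjusted p under 0.05 in edgeR's quasi-likelihood test and a fold over 1.5, were far fewer: 3 of 137 were lower and 0 higher, beside 0.526% of all features called lower and 2.91% called higher. The unadjusted p was under 0.05 in 96 members, beside 24.0% of all features. Members moved together within a library. In WT sucrose library 2, members with no overlap had a median log2 deviation of -1.68 from their 12-library mean (quartiles -1.82 and -1.41). Counts over members, here and below, are therefore not counts of independent results. DESeq2 called 32 members lower, with 3.08% of its features called lower, and all 3 genes called by edgeR were among them.

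The 3 genes called lower were RPL9A, RPS29A and RPL29. RPL9A encodes a 60S protein of the uL6 family, RPS29A a small zinc-binding protein of the 40S head, and RPL29 a small 60S protein that yeast can live without. RPL9A stood at 1275, 903 and 968 CPM in WT glucose and at 352, 156 and 461 CPM in WT sucrose. Every sucrose library was lower than every glucose library, and RPL9A fell by 1.70 ± 0.41 (SE) on the log2 scale (adjusted p 0.0442, edgeR). RPS29A stood at 106.5, 99.0 and 88.2 CPM in glucose and at 49.5, 30.5 and 54.5 CPM in sucrose. It fell by 1.13 ± 0.23 (adjusted p 0.0230, edgeR), again with no overlap of the groups. RPL29 stood at 44.5, 45.0 and 39.9 CPM in glucose and at 21.04, 12.95 and 25.7 CPM in sucrose, and fell by 1.12 ± 0.26 (adjusted p 0.0403, edgeR). RPS29A and RPL29 are among the less abundant members, and their changes are close to the median of the members. Their standard errors are smaller than that of RPL9A. With the 4 libraries numbered 2 left out, edgeR called none of the 137 and none of all 6092 features tested then. The members' median was -0.75, and 104 had an unadjusted p under 0.05, beside 14.4% of all features. Leaving out any WT glucose library, or WT sucrose library 1, also left 0 members called, and the other single libraries left 1 to 7. The share of all features called lower moved with this, from 0.0164% to 2.78%, and was 2.78% where 7 members were called.

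In Rpd3-2SA, the same comparison gave a median of -0.75 over the members, a fold of 1.68, beside 0.02 over all features. Again 130 of 137 were negative. The groups did not overlap for 92 genes that were lower in sucrose and 1 that was higher, beside 13.0% and 14.2% of all features. None of the 137 was called by edgeR, beside 0.279% of all features called lower and 1.61% called higher, 29 had an unadjusted p under 0.05 (18.1% of all features), and DESeq2 called 5 lower, beside 2.07% of its features. RPL9A was again the lowest member: it stood at 1208, 1075 and 825 CPM in glucose and at 438, 231 and 574 CPM in sucrose, a log2 fold change of -1.32 ± 0.40 (adjusted p 0.118, edgeR). Without WT sucrose library 2, which is in neither group of this comparison, 2 members were called, beside 0.589% of all features called lower. Without the 4 libraries numbered 2, the median was -0.45, none of the members or of all features was called in edgeR, and 35 members had an unadjusted p under 0.05, beside 11.2% of all features.

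**Figure D2:**
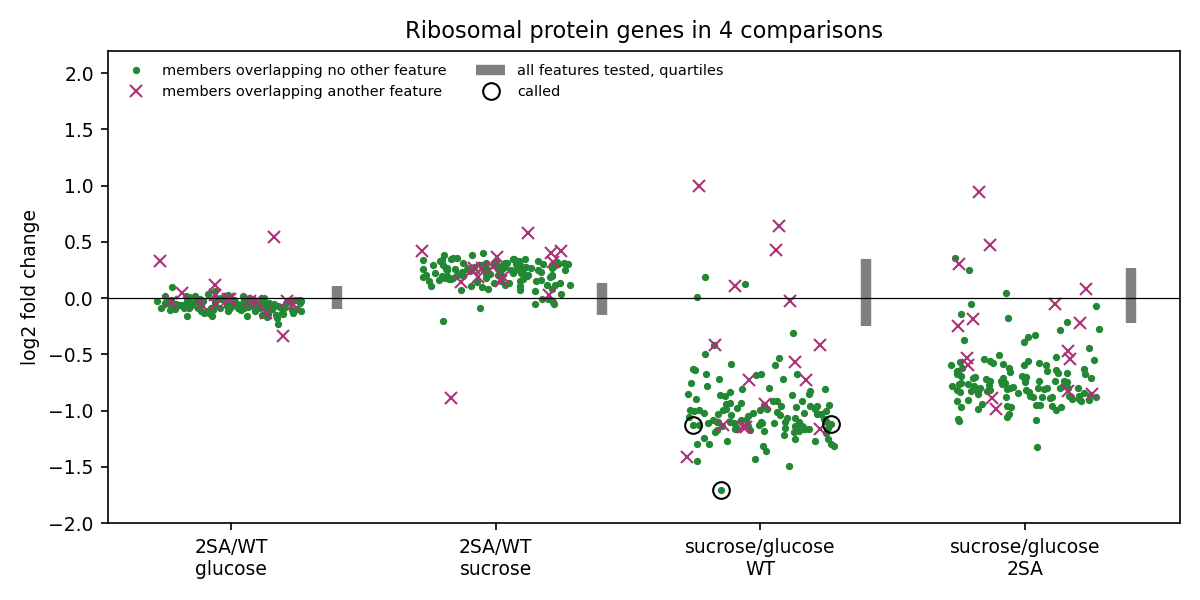
Log2 fold change of each of the 137 ribosomal protein genes in 4 comparisons, spread sideways. Crosses mark the 16 genes that overlap another counted feature, circles the 3 genes called, and grey bars the quartiles of all 6085 features tested. Most members lie near -1.03 in WT and near -0.75 in Rpd3-2SA for sucrose against glucose, and near 0 for the mutant against WT in glucose.

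The subunits and gene classes differed little in their medians. In WT the median sucrose change was -1.08 for 40S genes, with 55 of 56 negative, and -0.99 for 60S genes, with 75 of 81 negative. In Rpd3-2SA it was -0.80 and -0.71. Without the libraries numbered 2, the medians of 40S and 60S genes were -0.79 and -0.70 in WT and -0.48 and -0.40 in Rpd3-2SA. Genes with an intron had a median of -1.02 in WT and genes without one -1.09. Members of A and B pairs had a median of -1.02 and single genes -1.09. These are descriptions of the lists and carry no test.

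Among the stalk genes, whose proteins form the flexible arm of the 60S subunit that recruits elongation factors, all 5 were lower in sucrose. RPP0, which anchors the stalk, had a log2 fold change of -1.13 ± 0.46 in WT (adjusted p 0.171, edgeR). About 47.8% of its counted bases overlap another feature. RPP1A, RPP1B, RPP2A and RPP2B, which attach to it, had WT values of -1.15, -1.08, -0.92 and -1.31, none called. RPP2B stood at 2939, 2360 and 2944 CPM in WT glucose and at 1046, 621 and 1651 CPM in WT sucrose. Its 3 sucrose libraries lay below all glucose libraries, but it was not called (adjusted p 0.0917, edgeR).

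Of the genes whose proteins are made as a fusion with ubiquitin, RPS31 of the 40S subunit had a WT change of -1.29 ± 0.38 (adjusted p 0.0796, edgeR). RPS31 stood at 8610, 6440 and 7554 CPM in WT glucose and at 3094, 2004 and 4117 CPM in WT sucrose. The 60S fusions RPL40A and RPL40B, which encode the same protein, had -0.80 ± 0.39 and -1.10 ± 0.40. RPL5 and RPL11A, whose proteins join the 5S ribosomal RNA to the 60S subunit, had -0.93 and -1.25, while the second copy RPL11B had -0.63. RPL3, near the peptidyl transferase centre, had -0.96 ± 0.25 (adjusted p 0.0584, edgeR). RPL10, which joins the 60S subunit late in the cytoplasm, had -0.73 ± 0.35 (61.3% of its bases overlap another feature), and RPL25, at the exit of the nascent peptide, had -1.10 ± 0.44. RPS3, at the entry of the messenger RNA, had -1.08 ± 0.40. All of these lay within 0.5 of the members' median, and none was called.

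The lowest fitted changes after that of RPL9A were those of RPS12 (-1.49 ± 0.47), RPS26B (-1.45 ± 0.52), RPL7A (-1.43 ± 0.40), RPL8B (-1.41 ± 0.44) and RPS9B (-1.35 ± 0.48) in WT. In RPL8B, 53.7% of the bases overlap another feature. RPS12 encodes a 40S protein of the beak, and RPS26B a 40S protein at the messenger RNA exit channel. RPL7A, RPL8B and RPS9B encode proteins that bind ribosomal RNA in the body of their subunit. RPS12 stood at 1920, 1943 and 1835 CPM in WT glucose and at 674, 277 and 1080 CPM in WT sucrose. RPS26B stood at 4486, 3980 and 4129 CPM in glucose and at 1648, 532 and 2446 CPM in sucrose. Neither overlapped between sugars, and in both the sucrose libraries were spread over more than 3-fold. Their adjusted p in edgeR was 0.0964 and 0.128.

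A few members were not lower in sucrose. In WT the 7 genes with a positive fitted change were RPL39 (1.0 ± 0.65), RPL22A (0.64 ± 0.36), RPL43A (0.43 ± 0.36), RPS9A (0.18 ± 0.49), RPL22B (0.13 ± 0.27), RPL28 (0.11 ± 0.24) and RPL15B (0.02 ± 0.27). None was called. RPL39, RPL22A, RPL43A and RPL28 share at least 80% of their bases with another counted feature and had few counts. RPS9A, RPL22B and RPL15B overlap no other feature. RPL22B encodes the minor copy of a 60S protein that binds the intron of its own message and holds back its splicing. It stood at 38.1, 51.5 and 51.3 CPM in WT glucose and at 64.2, 30.1 and 59.7 CPM in WT sucrose. RPL22A, the copy that gives most of the protein in other work, stood at 2.77, 6.52 and 3.57 CPM in WT glucose and at 6.66, 8.60 and 4.80 CPM in WT sucrose. The counts thus place the copies of RPL22 in the opposite order, and RPL22A has 12 bases of its own. RPL30 and RPS14B are regulated through their own introns in a like manner. RPL30 had a WT change of -1.09 ± 0.37, and RPS14B had -0.59 ± 0.47 beside -0.86 ± 0.36 for its copy RPS14A.

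Between genotypes, the members were close in glucose and leaned higher in Rpd3-2SA in sucrose, with no gene called. For Rpd3-2SA against WT in glucose the median was -0.05 over the members and 0.01 over all features, with 117 of 137 negative and all within -0.34 (RPL7B) and 0.54 (RPL43A). edgeR called 0 of 137 and found 0 with an unadjusted p under 0.05, beside 0.0493% and 0.0329% of all features called lower and higher and 2.81% with an unadjusted p under 0.05. DESeq2 called 0, beside 0.354% and 0.0736% of its features called lower and higher. The glucose median lay between -0.13 and 0.01 over single libraries left out, positive without WT glucose library 1 or Rpd3-2SA glucose library 3, and was -0.13 without the libraries numbered 2. In sucrose the median was 0.25, a fold of 1.19, beside -0.00 over all features, with 129 of 137 positive. The range ran from -0.89 ± 0.64 (RPL39) to 0.58 ± 0.35 (RPL43A), both of which overlap another feature. Without the 16 members that overlap another feature, the median was also 0.25 and the range was -0.20 (RPS29B) to 0.40 (RPL17B). edgeR called 0 of 137 here too and found 0 with an unadjusted p under 0.05, beside 0.0493% and 0.0164% of all features called lower and higher and 3.98% with an unadjusted p under 0.05. DESeq2 called 0, beside 0.486% and 0.133% of its features called lower and higher. The groups overlapped for all members but RPL43A, beside 2.88% of all features that lay apart and higher.

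The libraries of a number deviated together in WT and Rpd3-2SA within a sugar, so the same comparison was made within those pairs. The share of counts in ribosomal protein genes was higher in the mutant in all 3 sucrose pairs, by comparison of 10.3% with 9.67%, 5.85% with 4.09% and 13.4% with 11.3%. In glucose it was higher in 1 of 3 pairs. With the replicate block within carbon source, the sucrose median was 0.29, 132 of 137 members were positive and 75 had an unadjusted p under 0.05 in edgeR, beside 21.2% of all features. Since members move together within a library, these counts can restate the shifts of a few libraries. None was called, beside 1.61% of all features called lower and 0.230% called higher. The closest was RPL17B, a 60S protein near the exit tunnel, at 0.46 ± 0.11 (adjusted p 0.0649, edgeR with the block). In glucose 2 members had an unadjusted p under 0.05 with the block, beside 10.5% of all features, and none was called. The unblocked sucrose median turned to -0.10 when WT sucrose library 2 was left out, and also when Rpd3-2SA sucrose library 3 was left out. It was 0.20 when the 4 libraries numbered 2 were left out together.

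The test of the difference between the sucrose responses of the genotypes called none of the 137. Its median was 0.29 over the members and -0.01 over all features, and 133 of 137 were positive. No member had an unadjusted p under 0.05 in edgeR, beside 0.164% of all features. DESeq2 called 0, and neither tool called any of all features. The median turned to -0.05 without WT sucrose library 2 and to -0.03 without Rpd3-2SA sucrose library 3, reached 0.63 without WT sucrose library 3, and was 0.32 without the 4 libraries numbered 2. With the replicate block within carbon source, 47 members had an unadjusted p under 0.05, beside 4.96% of all features, and none was called. The 47 and the 133 are not independent results, since members move together within a library. No gene thus passed the threshold for a difference between the genotypes' sucrose changes.

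Levels within the list were compared as CPM per kilobase of counted length, averaged over the 12 libraries. The median was 1279 over the 137 genes, 1697 for 40S genes and 1051 for 60S genes. The members that overlap another counted feature had a median of 66.3, and all but RPS2 and RPS27A of them are 60S genes. The subunit medians were not taken without them, so they do not compare the subunits on equal terms. RPL41B was highest at 28020, followed by RPS31 at 11570, RPL38 at 11180, RPS26B at 8102 and RPP2A at 7658. The rank of RPL41B rests on division by only 78 counted bases. Before that division its mean in WT glucose was 2642 CPM, below RPL15A at 4582 CPM and RPL38 at 3532 CPM. Whether levels per kilobase hold at so short a length was not tested. RPL41A and RPL41B encode the same 60S protein, the shortest of the yeast ribosome. Their coding sequences of 78 bases are shown because the copies differ at 1 base: the capital marks the position at which the copies differ, read from the R64 (sacCer3) genome on the minus strand of chromosome IV at chrIV:130407-130484 and chrIV:221724-221801.
RPL41A: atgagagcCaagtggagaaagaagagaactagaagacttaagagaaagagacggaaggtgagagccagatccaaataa
RPL41B: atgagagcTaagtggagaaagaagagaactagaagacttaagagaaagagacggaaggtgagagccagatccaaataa
RPL41A averaged 3721 CPM per kilobase, less than RPL41B. Of the 50-base windows in the coding sequence of either copy, 31.0% occur once in the nuclear genome. The treatment of reads that match both copies is among the steps not given in the sources used here, so the split between them is uncertain. The same holds for 16 members with under 50% of such windows, RPL7A, RPL7B, RPL11A and RPL11B among them.

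At the other end, the 5 lowest members were RPL39, RPL33A, RPL43A, RPL28 and RPL22A, between 4.65 and 16.7 CPM per kilobase. All 5 overlap another annotated feature on the opposite strand. Over the list, 16 genes overlap another counted feature, 15 on the opposite strand and RPL21A on its own strand. Their median level was 66.3 CPM per kilobase, against 1379 for the 121 that overlap none. The 6 genes with at least 80% of their bases overlapped (RPL22A, RPL28, RPL33A, RPL36B, RPL39 and RPL43A) lay between 4.65 and 20.4, below every one of the 121, of which RPL15B was lowest at 114. Of the features that overlap these 6 genes, YGL102C, beside RPL28, had 9065 counts in all 12 libraries together. It stood at 76.2 CPM per kilobase, against 14.25 for RPL28. The other overlapping features had low counts as well, from 24 to 543 in all libraries together. RPL39, which encodes a small protein that lines the exit tunnel of the 60S subunit, is shown as the plainest case. Its 156 coding bases lie in 2 exons at chrX:75933-76474 on the plus strand of R64 (sacCer3), and capitals mark the 6 bases that no other counted feature covers.
RPL39: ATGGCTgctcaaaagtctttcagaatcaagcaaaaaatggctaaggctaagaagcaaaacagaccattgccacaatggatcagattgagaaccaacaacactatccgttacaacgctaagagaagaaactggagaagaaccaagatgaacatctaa
RPL39 had 6 to 50 counts in a library. It stood at 0.318, 0.681 and 0.625 CPM in WT glucose, at 2.12, 0.241 and 0.906 CPM in WT sucrose, at 0.427, 0.741 and 0.865 CPM in Rpd3-2SA glucose and at 0.446, 0.412 and 0.924 CPM in Rpd3-2SA sucrose. WT sucrose library 1 was the highest and WT sucrose library 2 the lowest, so the groups overlapped. Values of the overlapped genes describe the bases that were counted for them, and whether the count of reads in shared bases differs from that of other genes was not tested. The medians above moved by at most 0.01 between all 137 members and the 121 in WT, at -1.03 and -1.04.

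**Figure D3:**
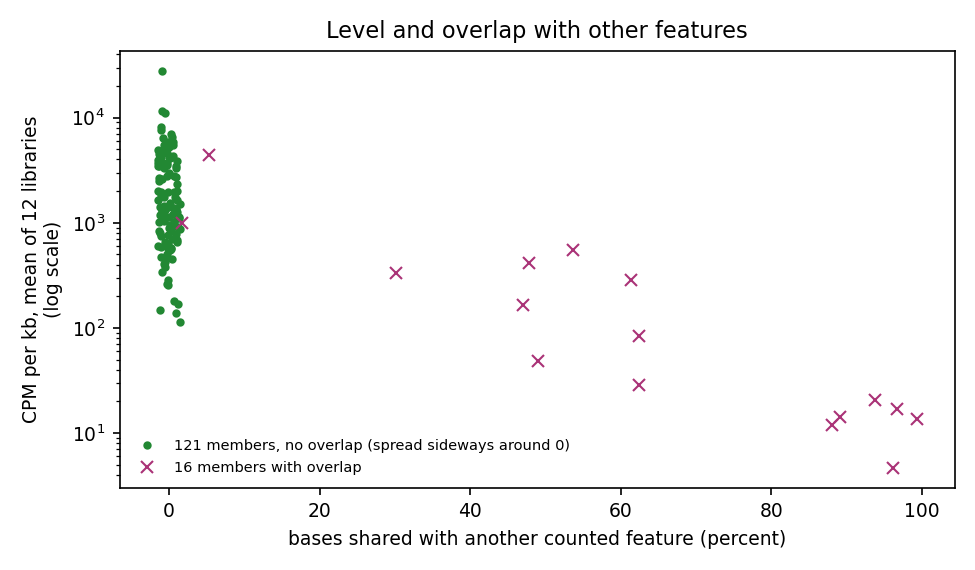
Mean level of each of the 137 genes over 12 libraries, in CPM per kilobase on a log axis, against the percent of its counted bases shared with another counted feature. Dots are the 121 genes with no overlap, spread sideways around 0, and crosses the 16 with overlap. The 6 genes past 80% lie at 4.65 to 20.4 CPM per kilobase.

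The copies of a pair can be compared within a library, which cancels the library's scale. Coding identity between copies ran from 78.9% (RPL22) to 99.4% (RPL1), with a median of 93.2% over the 57 pairs and 20 pairs above 95%. The log2 ratio of A to B per length moved between glucose and sucrose in some pairs and little in others. In WT the 3 sucrose ratios lay apart from the 3 glucose ratios in 18 of 57 pairs (31.6%), with the ratio lower in sucrose in 9 and higher in 9. In Rpd3-2SA they lay apart in 28 of 57 (49.1%), and 15 pairs lay apart in the same direction in both genotypes. With 3 against 3 libraries an exact two-sided permutation test cannot go below p 0.1. That is also the probability that a pair lies apart, either way, when the labels of the libraries are exchanged freely. The percentages are over the 57 pairs themselves, and no wider set of ratios stands beside them. The median size of the change was 0.23 on the log2 scale, and 14 pairs moved by more than 0.5. Without the 9 pairs in which a copy overlaps another feature, 15 of 48 lay apart in WT and 25 in Rpd3-2SA. Without WT glucose library 2 the WT count was 33, and without WT sucrose library 3 it was 28. With 1 library fewer a pair lies apart more easily under free exchange of labels, so these counts cannot be set against the 18.

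The RPS9 and RPL9 pairs moved most, in opposite directions, and none of these 4 genes overlaps another feature. RPS9A and RPS9B encode the uS4 protein of the 40S body, which takes part in the accuracy of decoding, and each has an intron near its start. The log2 ratio of RPS9A to RPS9B was -3.51, -2.62 and -2.78 in WT glucose and -1.42, -1.84 and -1.36 in WT sucrose. In Rpd3-2SA it was -3.66, -2.89 and -2.74 in glucose and -1.94, -1.62 and -1.85 in sucrose. All 6 sucrose libraries were above all 6 glucose libraries, with a mean change of 1.36. In 12 of 57 pairs the sugars lay apart in this way, in either direction. Same-numbered libraries of the genotypes deviated together within a sugar, so the 6 libraries of a sugar are not 6 independent values. RPS9B was the major copy throughout. It stood at 3742, 2658 and 2809 CPM in WT glucose and at 1556, 449 and 1598 CPM in WT sucrose, while RPS9A stood at 332, 437 and 414 CPM and at 588, 127 and 629.5 CPM. RPS9A was thus higher than in any WT glucose library in 2 sucrose libraries and lower in the library numbered 2, while RPS9B was lower in all 3.

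For RPL9 the ratio of A to B was 1.61, 1.59 and 1.40 in WT glucose and -0.22, 0.39 and 0.41 in WT sucrose. In Rpd3-2SA the glucose ratios were 1.69, 1.60 and 1.34, and the sucrose ratios were 0.08, 0.49 and 0.43. The 6 sucrose libraries were below all 6 glucose libraries, with a mean change of -1.28. The copies were closer to equal in sucrose than in glucose. RPL9B stood at 416, 299 and 367 CPM in WT glucose and at 410, 119 and 347 CPM in WT sucrose, which overlap, with a log2 fold change of -0.31 ± 0.43 (adjusted p 0.694, edgeR). RPL9A, described above, fell. Of the 50-base windows of their coding sequences, 86.0% were unique in the RPL9 copies and 94.9% in RPS9B.

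**Figure D4:**
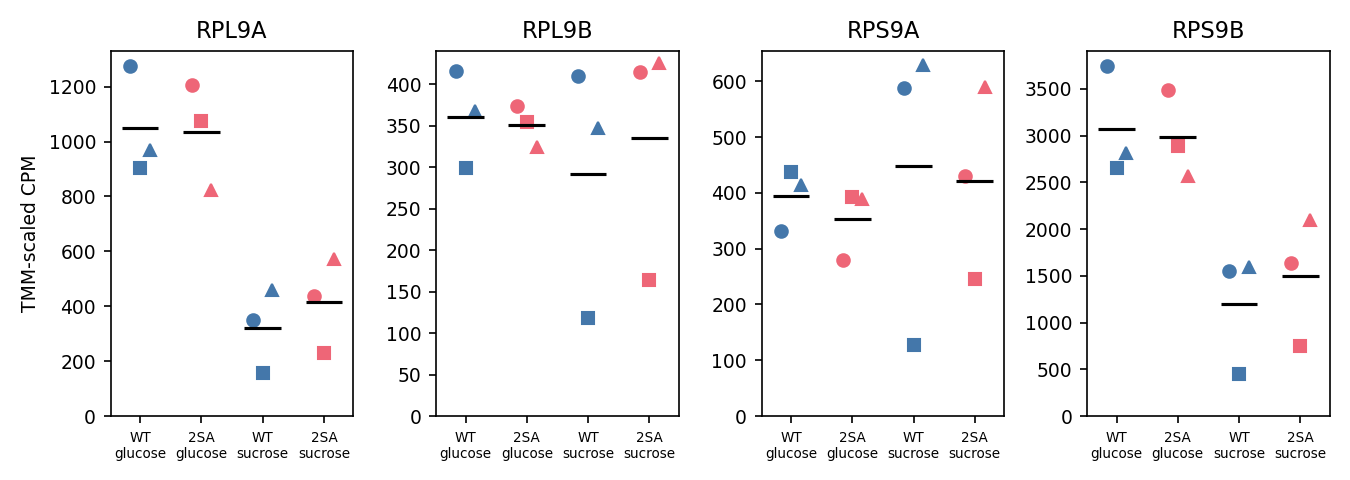
TMM-scaled CPM of RPL9A, RPL9B, RPS9A and RPS9B in each library, each gene on its own axis from 0, with shapes for the replicate number and bars for group means. RPL9A and RPS9B are lower in every sucrose library than in any glucose library, while RPL9B and RPS9A overlap between sugars.

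Because the comparison of copies turns on these 4 genes, the 300 bases that lie 350 to 51 before each start codon are shown from the R64 (sacCer3) genome, 5′ to 3′ on the strand of the gene. Capitals mark a match to the Rap1 core ACCCANACA on either strand, which was found in RPL9A alone among these 4 windows. RPL9A lies at chrVII:228380-228679 on the minus strand, RPL9B at chrXIV:499331-499630 on the plus strand, RPS9A at chrXVI:404600-404899 on the plus strand and RPS9B at chrII:604158-604457 on the plus strand.
RPL9A: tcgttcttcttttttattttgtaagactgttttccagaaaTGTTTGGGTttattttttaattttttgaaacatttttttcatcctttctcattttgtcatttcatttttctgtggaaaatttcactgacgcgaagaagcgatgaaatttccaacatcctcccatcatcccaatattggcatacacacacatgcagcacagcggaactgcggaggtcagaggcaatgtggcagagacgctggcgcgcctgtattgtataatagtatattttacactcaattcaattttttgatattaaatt
RPL9B: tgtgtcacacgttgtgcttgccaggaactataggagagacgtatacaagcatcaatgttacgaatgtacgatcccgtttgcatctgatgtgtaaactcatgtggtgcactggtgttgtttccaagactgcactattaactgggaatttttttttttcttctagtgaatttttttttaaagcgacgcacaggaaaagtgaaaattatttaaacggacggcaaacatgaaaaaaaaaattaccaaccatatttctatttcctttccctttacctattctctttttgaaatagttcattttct
RPS9A: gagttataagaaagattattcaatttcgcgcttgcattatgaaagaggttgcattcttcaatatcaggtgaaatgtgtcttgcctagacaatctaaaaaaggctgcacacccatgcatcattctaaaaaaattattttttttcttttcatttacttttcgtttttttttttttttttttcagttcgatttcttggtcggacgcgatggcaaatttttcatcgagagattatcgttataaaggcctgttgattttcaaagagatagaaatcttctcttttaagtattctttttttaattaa
RPS9B: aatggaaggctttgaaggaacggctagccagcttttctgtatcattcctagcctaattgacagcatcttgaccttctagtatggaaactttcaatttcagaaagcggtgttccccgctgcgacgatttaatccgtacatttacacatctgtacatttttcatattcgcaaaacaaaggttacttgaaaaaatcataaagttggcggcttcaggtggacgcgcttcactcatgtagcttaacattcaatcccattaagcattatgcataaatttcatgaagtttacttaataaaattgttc
The match in RPL9A is on the other strand and starts 310 bases before the start codon. These letters describe the windows only, and a window with no match says nothing on the binding of the factor.

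Other pairs moved by smaller amounts. RPL15A, a 60S core protein, stood far above its copy RPL15B, and the log2 ratio went from 6.32, 5.91 and 5.79 in WT glucose to 5.03, 4.43 and 5.15 in WT sucrose. RPL15A stood at 5067, 3707 and 4974 CPM and then at 2369, 1093 and 3313 CPM, while RPL15B stood at 63.4, 61.4 and 89.6 CPM and then at 72.4, 50.8 and 93.5 CPM. RPL14A against RPL14B went from 0.18, -0.46 and -0.00 to -0.86, -1.26 and -0.65. Both pairs lay apart in both genotypes, with mean changes of -1.01 and -0.85. The RPL7 pair moved by -1.10 and the RPL43 pair by 1.02, but RPL7B and RPL43A overlap another feature and 37.7% of the windows of the RPL7 copies are unique. RPL11 moved by -0.60 and RPS22 by -0.58, lying apart in both genotypes. Of the windows of the RPL11 copies, 39.1% are unique, so the split of their shared reads is uncertain. Averaged over both genotypes, RPS6, RPS18, RPL24 and RPS25 moved by 0.05 or less. Within 1 genotype the size was at most 0.12, in RPS18 in WT. RPS18 A to B was -1.0, -1.17 and -1.08 in WT glucose and -0.98, -0.89 and -1.01 in WT sucrose, which overlap. Of the 50-base windows, 98.0% are unique in RPS18 and 27.3% in RPS6, where the split of shared reads is uncertain. The median size of the change was 0.11 over the 8 pairs with under 50% unique windows and 0.23 over the other 49.

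**Figure D5:**
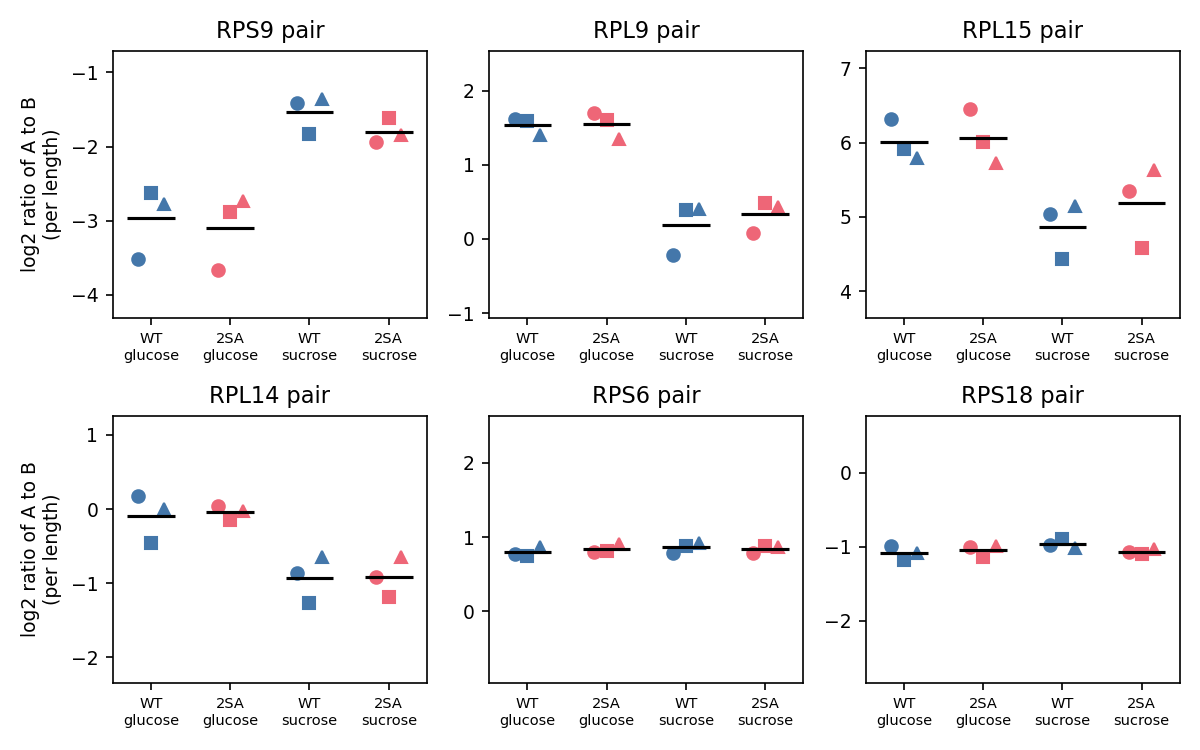
Log2 ratio of the A to the B copy per length in each library for 6 paralog pairs, with shapes for the replicate number and bars for group means. All panels span the same range of log2 units around different centres. From glucose to sucrose the mean change is 1.36 for RPS9 and -1.28 for RPL9, and 0.05 or less for RPS6 and RPS18, averaged over both genotypes.

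Between genotypes the ratios of the copies moved far less. Over the 6 pairs of WT and Rpd3-2SA libraries with the same number and sugar, the median size of the change was 0.06 over the 57 paralog pairs. In 3 of 57 (5.26%) all 6 library pairs went the same way, which is the smallest p an exact sign-flip permutation test over 6 pairs can give, 0.03125, unadjusted for 57 comparisons. These were RPL34 (-0.08), RPL19 (-0.07) and RPL43 (0.47). RPL43 rests on RPL43A, with 33 to 131 counts in a library and 2 bases of its own. The next largest changes were -0.20 for RPS9 and 0.19 for RPL15, with exact sign-flip permutation p of 0.188 and 0.0625.

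Features of the genes that the choice of members did not use set the list apart as a description. An intron was annotated in 89 of 137 (65.0%), beside 4.5% of 5989 coding features, and RPL7A and RPL7B have 2. The introns of RPL7A, RPL7B and RPS22B hold the small nucleolar RNAs SNR39, SNR59 and SNR44. In the 600 bases before the start codon, the Rap1 core ACCCANACA (either strand) was found in 47 of 137 members (34.3%), beside 3.5% of 5999 genes, at a median distance of 335 bases. Of the members, 5.8% held it more than once, beside 0.2% of genes. These 8 members include 2 pairs of neighbours that face away from each other, RPL13A with RPS16B and RPL13B with RPS16A. Each of these pairs shares the same matches, which are counted for both genes. The Abf1 pattern (CGT, 6 bases of any kind and TGA) was found in 21.2% of members and 25.7% of genes, and the stress element AGGGG in 37.2% and 39.7%. AAAAATTTT and GCGATGAG, elements known from genes of ribosome assembly, were found in 9.5% and 1.5% of members, beside 10.3% and 5.2% of genes. Any of these matches can overlap another. Members with a Rap1 match had a median sucrose change of -1.07 in WT and those without one -1.02.

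Genes that act on the ribosomal proteins were counted from lists. Of the 8 regulators tested, none was called in any comparison by edgeR or DESeq2. For sucrose against glucose, edgeR called 0.526% and 2.91% of all features lower and higher in WT, and 0.279% and 1.61% in Rpd3-2SA. In WT, 2 regulators had an unadjusted p under 0.05 in edgeR for this comparison, beside 24.0% of all features. The largest WT sucrose change was that of CRF1, a corepressor of these genes, at 0.51 ± 0.22 (adjusted p 0.193, edgeR). HMO1, also on the list, was close at 0.49 ± 0.16 (adjusted p 0.0975, edgeR). Without the libraries numbered 2 the largest was IFH1, at 0.84. RAP1 had -0.24 and IFH1 0.45, and the list's median was 0.23 beside 0.04 over all features. Of the 9 dedicated chaperones of ribosomal proteins, none was called by either tool. In WT sucrose against glucose 1 had an unadjusted p under 0.05 in edgeR, beside the same 24.0%. The median there was -0.24, with the lowest value for ACL4, the chaperone of Rpl4, at -0.66. Of the 11 elongation and ribosome-bound factors, 10 were tested and none called by edgeR. For sucrose against glucose 4 had an unadjusted p under 0.05 in each genotype, beside 24.0% (WT) and 18.1% (Rpd3-2SA) of all features. Their median was -0.73 in WT and -0.69 in Rpd3-2SA. DESeq2 called 3 of these factors lower in WT and 0 in Rpd3-2SA, beside 3.08% and 2.07% of its features. Without the libraries numbered 2 their medians were -0.57 and -0.46. STM1, which clamps idle ribosomes, was lowest in both at -1.13 and -0.91. Of the 20 stress genes, none was called by edgeR for sucrose against glucose. In WT and Rpd3-2SA, 8 and 5 had an unadjusted p under 0.05 in edgeR, beside 24.0% and 18.1% of all features. The median of the stress genes was 1.30 in WT and 0.60 in Rpd3-2SA. DESeq2 called 5 of them higher in WT and 2 in Rpd3-2SA, beside 5.44% and 3.56% of its features. Without the libraries numbered 2 the medians of the stress genes turned to -0.28 in WT and -0.66 in Rpd3-2SA. For Rpd3-2SA against WT in sucrose, edgeR and DESeq2 each called 0 of the 20, beside 0.0493% and 0.486% of their features called lower. The median was -0.61, and 0 and 1 had an unadjusted p under 0.05, beside 3.98% and 4.26% of features. With the replicate block within carbon source 5 were called lower, beside 1.61% of all features, with a median of -0.49. In the sucrose libraries numbered 2 the share of the stress genes was the highest of all libraries and that of the ribosomal protein genes the lowest. In the other sucrose libraries the shares also ran in opposite orders. They went from 1.22% and 9.67% in WT library 1 to 0.626% and 13.4% in Rpd3-2SA library 3. Among the glucose libraries the order was not of this kind. Those numbered 1 had the highest stress shares in glucose, 1.26% in WT and 1.30% in Rpd3-2SA, and the highest ribosomal protein shares. The part of the stress genes in the values above was not tested.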

How the data were processed

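The authors deposited 1 table of unnormalized counts of reads for each of 7127 features in 12 libraries. Reads were aligned with Bowtie 0.12.2 to sacCer3, per the submitters' processing notes. The counting program, its strand setting and its treatment of reads with several matches were not given in the sources used here. Groups and replicate numbers came from the sample titles. In 135 of 137 members the table and the R64 annotation have the same exons.

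The quasi-likelihood test of edgeR 4.0.16 (R 4.3.3) was applied to the counts with a mean for each group, TMM scaling (factors 0.922 to 1.11), the default filter (minimum count 10), which kept 6085 features, and p-values adjusted (Benjamini-Hochberg) over all of them. A gene was called at an adjusted p under 0.05 and a fold over 1.5. Standard errors and adjusted p come from this fit unless a block or DESeq2 1.42.0 is named. CPM values are TMM-scaled. p-values measure the spread between these libraries. The fit with a mean for each group takes all libraries as independent, with 8 residual degrees of freedom. Same-numbered libraries of the genotypes deviated together within a sugar, so this spread rests on fewer independent values. How far that changes the p-values and calls for sucrose against glucose was not tested. Paralog ratios used counts per length with 0.5 counts added. No replicates were close enough to be 1 library (chi-square per degree of freedom 87.4 or more). Precision from counting error alone follows from the counts given.

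The members, the gene lists and the comparisons were chosen with earlier results of these data known. Genes were named by rule: the 6 highest and 6 lowest per comparison, called genes, the pairs whose ratio changed most or is most unequal, the 5 highest and lowest levels, and a list of well-known members. RPL24, RPS25, RPS6 and RPS18 were named after their values were seen, as pairs that moved little, as were RPL14, RPL11, RPS22, RPL34 and RPL19.

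Replicate numbers come from the titles. Each library's deviation from its group mean was correlated over genes with that of its same-numbered partner of the other genotype. In glucose r was 0.654, 0.610 and 0.545, and in sucrose it was 0.603, 0.847 and 0.799. Between sugars, over same-numbered libraries of either genotype, r was 0.068 to 0.359 for number 1 and 0.274 to 0.479 for number 3. For number 2 it was -0.273 to -0.092. No source states a pairing between sugars. Within a sugar the numbers were therefore taken to pair the genotypes, and a replicate block within carbon source was fitted beside the genotype comparisons. Alternatives were RLE or no scaling factors, no filter, DESeq2, blocks, each library left out, the libraries numbered 2 left out, and overlapping members left out.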

Additional observations from a re-analysis of the deposited data

How the results depend on the processing

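For sucrose against glucose in WT, 3 members were called. DESeq2 called 32, the additive replicate block over all libraries called 67 (4.49% of all features were called lower), leaving out each library in turn called 0 to 7 (0.0164% to 2.78% of all features called lower), and leaving out the 4 libraries numbered 2 called 0, as it did among all features. In Rpd3-2SA, where 0 were called, DESeq2 called 5, the additive replicate block called 9 (2.19% of all features) and leaving out each library in turn called 0 to 2 (0.0163% to 0.589%). All of these calls were lower in sucrose, and the 3 genes were among the 32 and the 67. No source states that the numbers pair glucose with sucrose libraries, and the deviations went together between sugars for some numbers only. The block there is a description. The causes of these differences were not tested. RLE scaling, no scaling factor and no filter called 3, 4 and 3 in WT. Library totals alone moved the median of all features by 0.13 in WT and 0.12 in Rpd3-2SA, and the members' median less that of all features stayed between -1.06 and -1.10 in WT. The median of the members in WT ran from -1.35 to -0.68 over single libraries left out, and in Rpd3-2SA from -1.06 to -0.46. For Rpd3-2SA against WT it ran from -0.13 to 0.01 in glucose and from -0.10 to 0.55 in sucrose, and for the difference between the sucrose changes from -0.05 to 0.63. The 18 paralog pairs lying apart in WT became 21 to 33 with 1 library fewer, where 3 values against 2 overlap less easily, and the count was 18 with 5 counts added. No genotype comparison or interaction gave a call among the members under any alternative run. The alternatives chosen after seeing the data left out overlapping members or pairs, or used the block within carbon source without the libraries numbered 2, which gave a sucrose genotype median of 0.19. Depth limits the overlapped members most: RPL39 had as few as 6 counts in a library, while the 121 members with no overlap had at least 311 in every library.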
